A study of Mus musculus with 6 samples.

Results

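The genes described here encode the subunits of respiratory complexes I to IV that are made from nuclear DNA. They were chosen by symbol alone, as the Nduf subunit genes, Sdha to Sdhd, Cyc1, the Uqcr genes and the Cox4 to Cox8 genes. In all, 71 of the 55450 genes in the table matched, 39 for complex I, 4 for complex II, 9 for complex III and 19 for complex IV. Of these, 4 are annotated as processed pseudogenes (Ndufa11b, Ndufb4c, Ndufs6b and Cox6c2), which are copies of a spliced transcript inserted elsewhere in the genome.

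The respiratory chain sits in the inner mitochondrial membrane and passes electrons from NADH and succinate to oxygen. Complexes I, III and IV pump protons as they do so, and ATP synthase, also called complex V, uses the proton gradient to make ATP. Photoreceptors, which dominate the mouse retina by number, pack mitochondria into their inner segments and are known for a high oxygen consumption.

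RNA was measured in retina of C57BL/6 mice aged 8 weeks, with 3 libraries of heterozygous Myrf +/− mice, named Myrf-kd, and 3 of wild-type mice (WT). Both groups share strain, age and tissue, and no treatment is named. The product of Myrf, the myelin regulatory factor, is cut from its membrane anchor and acts in the nucleus, best known for myelin genes in oligodendrocytes. Neither the site of the alteration in Myrf nor whether each library is a separate animal is stated in the labels. P-values therefore measure the spread between libraries, which may be technical in part.

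Library totals ran from 50695091 to 70298511 count units, with about 4 units per fragment. FPKM values of the targeted gene, Myrf, were 0.279, 0.382 and 0.351 for libraries 1, 2 and 3 of Myrf-kd, against 0.359, 0.397 and 0.463 for those of WT. The groups overlapped (exact two-sided permutation test, p = 0.2, where 3 against 3 cannot go below 0.1), and reads summed over the whole gene do not check the genotype. All 10 retinal markers examined, among them the rod gene Gnat1, had counts in all 6 libraries. Xist and Y-linked genes marked Myrf-kd 3 and WT 3 as female and the other 4 libraries as male.

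The level of each subunit gene was compared in FPKM, a value scaled to gene length and library depth. The median over the 67 genes that are not pseudogenes was 26.2 FPKM. The highest was Cox4i1, a regulatory subunit of complex IV, at a mean of 113.8 FPKM over the 6 libraries. Cox6b1 of complex IV followed at 101 FPKM and Sdha, the flavoprotein of complex II that oxidizes succinate, at 96.6 FPKM.

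In complex I, the accessory subunits of the membrane arm alone spanned a wide range. Ndufb11 stood at 55.0 FPKM and Ndufb2, the lowest gene of the complex by FPKM apart from pseudogenes, at 7.54 FPKM. The order of genes by FPKM, here and in the other complexes, depends on the length assigned to each gene. Ndufb2 had 2248 to 3907 count units per library, more than the 883 to 1144 units of Ndufa1, which was listed at 31.9 FPKM. The part of the assigned length in these ranks was not tested. The genes of complex I formed a gradual series, in which 34 of the 35 pairs of neighbours overlapped over the 6 libraries. Complex III ranged from Uqcrh, the hinge protein that helps cytochrome c1 dock cytochrome c, at 78.8 FPKM to Uqcrq at 16.4 FPKM. In complex II, Sdhd, which anchors the enzyme in the membrane, stood at 36.8 FPKM, Sdhc at 22.8 FPKM and Sdhb, the iron-sulfur subunit, at 21.1 FPKM. Sdhc and Sdhb overlapped, while Sdha and Sdhd did not overlap with their neighbours.

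**Figure D1:**
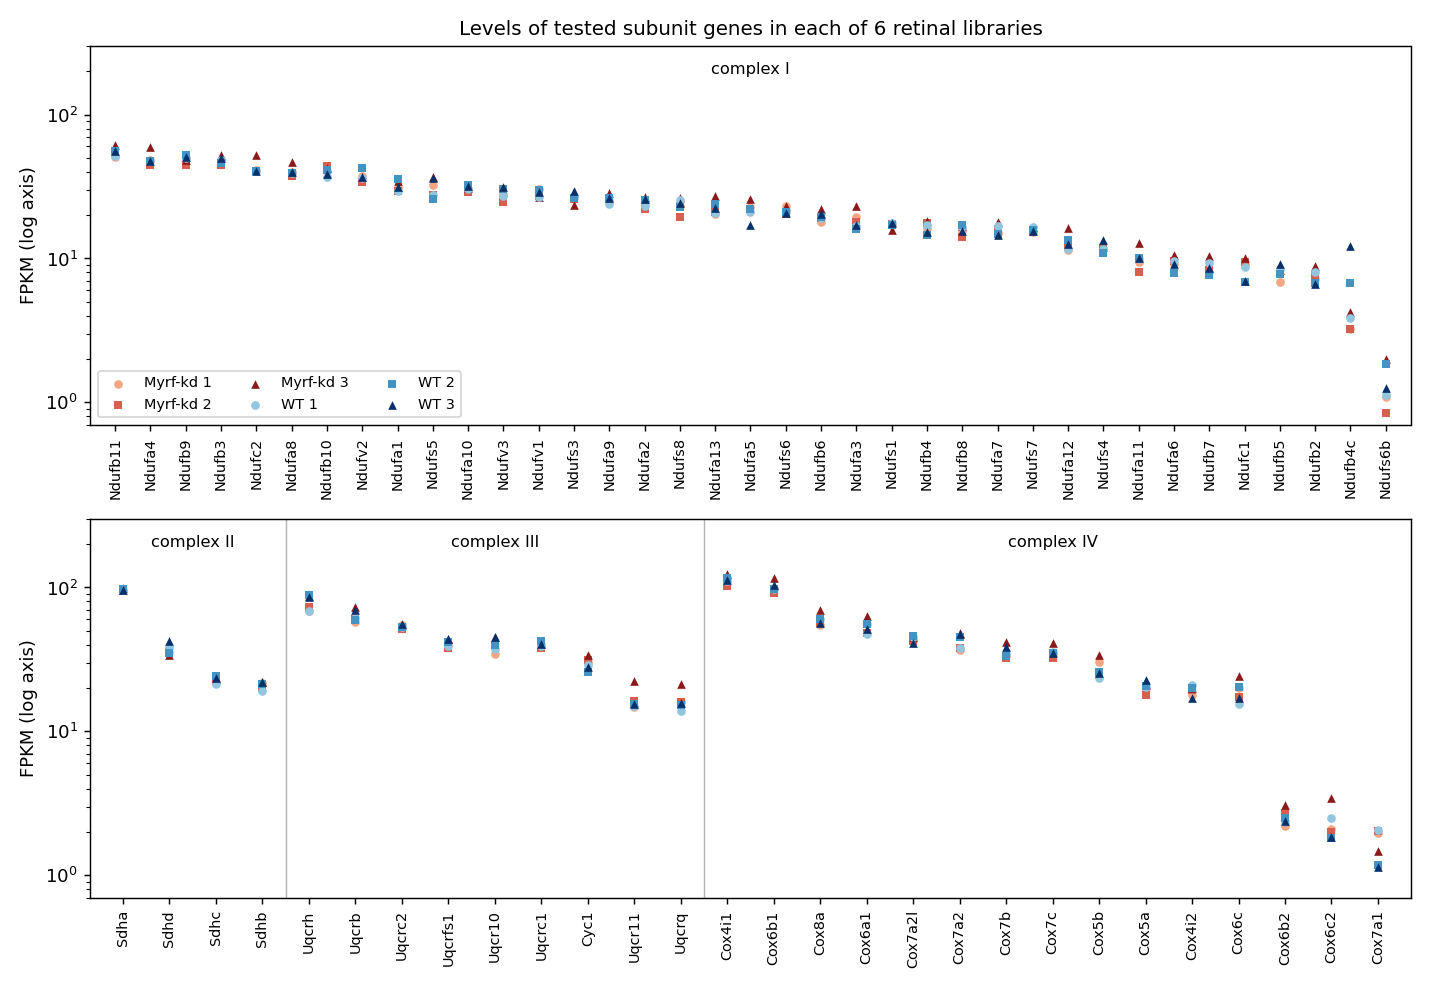
FPKM (log axis) of tested subunit genes (65 plotted) in each of the 6 libraries, ordered within each complex by the mean; each point is 1 library. The 6 libraries lie close together for most genes, dark red triangles (Myrf-kd 3) are often the upper point, and Cox4i1 is the highest gene at a mean of 113.8 FPKM.

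Several complex IV subunits exist as a common copy and as copies that are known from other tissues. Cox4i2, known from lung and from oxygen-sensing cells, was listed between 17.9 and 19.9 FPKM in Myrf-kd and between 17.1 and 21.0 FPKM in WT. Shares of FPKM, here and for the copies below, depend on the length assigned to each gene. In counts, Cox4i2 had 930 to 1236 units per library and Cox4i1 10699 to 15034, a smaller share than by FPKM. By FPKM, Cox4i2 stood at 15.2% to 19.0% of Cox4i1. The ratio was 16.8% ± 1.92 in Myrf-kd and 17.1% ± 1.92 in WT (SD, n = 3 each; exact two-sided permutation test, p = 0.9), and the groups overlapped.

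The copies typical of heart and skeletal muscle were scarce beside their common partners. Cox7a1 stood at 2.40% to 5.40% of Cox7a2, Cox8b at 1.01% to 2.30% of Cox8a, and Cox6a2 at no more than 0.716% of Cox6a1. Cox6b2, best known from testis, stood at 2.24% to 2.97% of Cox6b1. Cox7b2 had counts only in Myrf-kd 2, at 4 units, and Cox8c was listed at 0 in all 6 libraries. Skeletal muscle markers summed to 3.43 to 4.35 FPKM in Myrf-kd and 2.52 to 5.16 FPKM in WT, with 6 to 9 of 10 detected per library, and their part in the low levels of Cox7a1 and Cox8b was not tested. Cox7a2l, which is known to help complexes III and IV join into supercomplexes and is no tissue-restricted copy, reached 86.0% to 119% of Cox7a2.

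Which subunits differ between Myrf +/− and wild-type retina was tested over the 13673 genes with a mean of at least 1 FPKM. Of the 71 subunit genes, 66 were tested, and Cox6a2, Cox7b2, Cox8b, Cox8c and Ndufa11b lay below that level. None of the 66 passed (quasi-likelihood test of edgeR, adjusted p under 0.05 after Benjamini and Hochberg), against 6 of all tested genes, or 0.0439%. limma on log2(FPKM + 1) and DESeq2 also called 0 of the 66. An unadjusted p under 0.05 was reached by 3 subunit genes in edgeR, where 7.49% of all genes did so, by 3 in limma and by 2 in DESeq2.

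Markers of cornea and surface epithelium summed to 2.312 to 3.998 FPKM in Myrf-kd and to 8.76 to 12.6 FPKM in WT. Of the 9, 6 to 8 were detected in Myrf-kd and 7 to 9 in WT. The groups did not overlap for Krt5, Krt12, Krt15 and Aldh3a1, and overlapped for Krt13, Krt14, Trp63, Kera and Perp. Kera was at 0 in all libraries but WT 3, Krt14 in Myrf-kd 1 and WT 1, and Krt5 in Myrf-kd 1. Of the 4 tested markers (Krt5, Krt12, Aldh3a1 and Perp, all with estimates below 0), 0 passed. Markers of the pigment epithelium, 7 of 7 detected in each library, summed to 78.2 to 106 FPKM in Myrf-kd and 97.4 to 121 FPKM in WT, with 0 of 6 tested past the test. Their part in the subunits' estimates was not tested.

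The estimates of the subunit genes were small. They lay above 0 in Myrf-kd for 31 of the 66 genes and below 0 for 35, where 51.0% of all genes lay above 0. Scaling by library totals alone put 42 of the 66 above 0, and it moved the median of all genes from 0.00 to 0.04 on the log2 scale. The median log2 fold change was 0.00 for complex I, −0.03 for complex II, −0.03 for complex III and 0.01 for complex IV, and under library totals alone it was above 0 for all 4, at 0.03, 0.0036, 0.0041 and 0.04. For 60 of the 66 genes, the 95% interval lay within 1.5-fold in both directions, where 69.2% of all genes had such an interval. The remaining 6 were Ndufb4c, Ndufs6b, Ndufc1, Uqcr11, Cox6c2 and Cox7a1. The median level was 23.7 FPKM over the 71 subunit genes and 5.97 FPKM over all tested genes. The part of this difference in level in the width of the intervals was not tested.

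**Figure D2:**
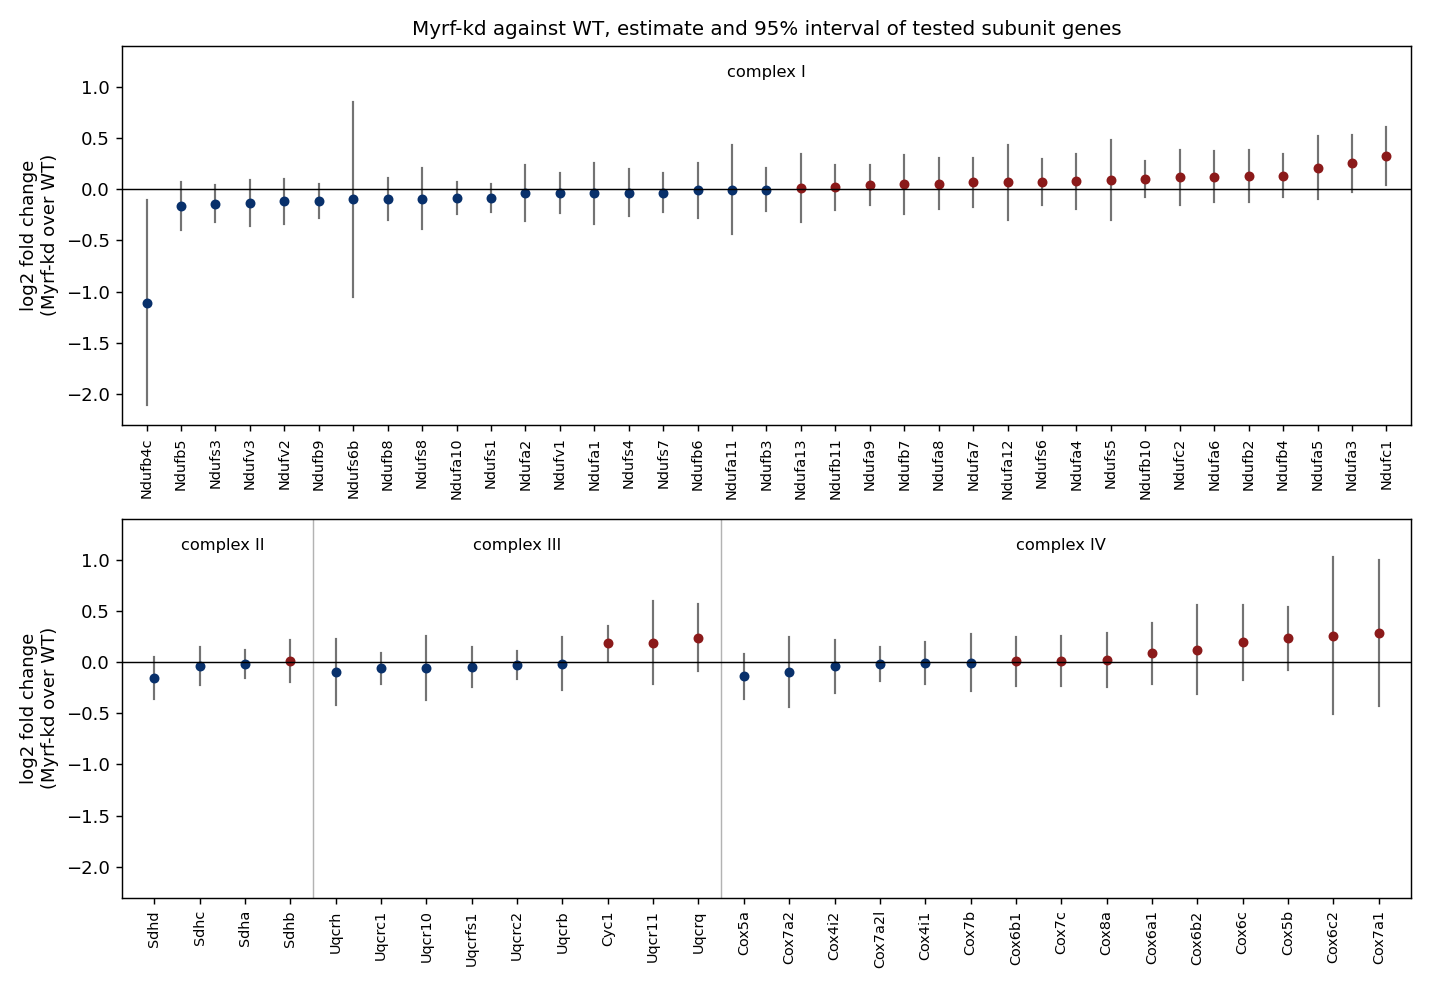
log2 fold change of Myrf-kd over WT (point) with its 95% interval (line) for tested subunit genes (65 plotted), by complex; red points lie above 0 and blue points below. Most intervals cross 0 and are narrow, and the pseudogene Ndufb4c is the widest apart at −1.11.

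Complex I oxidizes NADH and consists of a peripheral arm, with the N and Q modules, and a membrane arm. All 7 nuclear core subunits, which carry the flavin, the iron-sulfur clusters and the quinone site, had estimates below 0, with a median of −0.09 and 0 of 7 past the test. All 7 stayed below 0 under the 18 alternative settings, except that 1 gene lay above 0 under library totals alone and on leaving out Myrf-kd 2 or WT 2. The median was −0.04 without Myrf-kd 2 and −0.03 when WT 2 was left out. The accessory subunits, with 17 of 28 above 0 and a median of 0.04, showed 8 of 28 above 0 and a median of −0.05 without Myrf-kd 3. Their median was 0.08 on leaving out Myrf-kd 1 or Myrf-kd 2, and 0.00 on leaving out WT 1. By module, 2 of 8 genes lay above 0 in the N module, which takes up electrons from NADH, 4 of 8 in the Q module, 6 of 9 in the proximal membrane arm and 5 of 10 in the distal membrane arm.

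Ndufs1 (ENSMUSG00000025968, chromosome 1, 63143596 to 63176822, GRCm38), the largest core subunit, had CPM values, which are count units per TMM-normalized library total, of 161, 161 and 148 for Myrf-kd 1, 2 and 3 and of 165, 165 and 168 for WT 1, 2 and 3. The WT libraries were all higher than the Myrf-kd libraries, Myrf-kd 1 and 2 lay close to WT, and Myrf-kd 3 stood apart as the lowest. The fold change was 0.942 with a 95% interval from 0.859 to 1.03 (edgeR's adjusted p = 0.731). Ndufs3 (chromosome 2, 90894634 to 90904827), a core subunit of the Q module, stood at 66.8, 64.8 and 59.5 CPM in Myrf-kd and at 67.6, 68.3 and 75.1 CPM in WT. Here too the groups did not overlap, with Myrf-kd 3 lowest and WT 3 highest, and the fold change was 0.906 (0.800 to 1.03, edgeR's adjusted p = 0.697). With the counts of Gm12251, a pseudogene of 98.6% identity at 4.07 FPKM, added to Ndufs3, Myrf-kd 1 at 71.5 CPM exceeded WT 1 at 70.5 CPM, so the groups overlapped. Ndufb11 of the membrane arm had a log2 fold change of 0.02 ± 0.09 SE.

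Among accessory subunits, Ndufc1 and Ndufa3, both of the membrane arm, had the largest positive estimates. Ndufc1 (ENSMUSG00000037152, chromosome 3, 51404677 to 51408988) stood at 15.7, 16.2 and 17.4 CPM in Myrf-kd and at 15.0, 12.2 and 12.2 CPM in WT. Every Myrf-kd library lay above every WT library, although Myrf-kd 1 and WT 1 were close. The log2 fold change was 0.32 ± 0.12 SE (unadjusted p = 0.0316, adjusted p = 0.666 by edgeR). Ndufa3 (chromosome 7, 3617373 to 3620327) stood at 23.2, 21.0 and 27.3 CPM in Myrf-kd and at 20.0, 19.6 and 20.5 CPM in WT. The groups did not overlap, Myrf-kd 3 stood apart above the others, and the log2 fold change was 0.25 ± 0.12 SE (edgeR's adjusted p = 0.685).

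Ndufa4 carries a complex I name but is known today as a subunit of complex IV. It stood at 78.0, 70.7 and 96.0 CPM in Myrf-kd and at 76.1, 78.6 and 77.2 CPM in WT, so that the Myrf-kd libraries spread on both sides of a tight WT group. With Ndufa4 counted in complex IV, that complex's median log2 fold change was 0.02, against 0.01 without it.

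Complex II, which is also the succinate dehydrogenase of the citrate cycle and has no subunit encoded in mitochondrial DNA, had 0 of 4 genes past the test, 1 estimate above 0 and 3 below. Sdha (chromosome 13, 74322254 to 74350280) stood at 463, 447 and 471 CPM in Myrf-kd and at 457, 481 and 464 CPM in WT. The groups were interleaved, and the fold change was 0.986 with a 95% interval from 0.899 to 1.08. Sdhd (chromosome 9, 50596357 to 50603812) stood at 51.1, 50.6 and 48.1 CPM in Myrf-kd and at 54.7, 50.9 and 61.0 CPM in WT. WT 2 fell inside the Myrf-kd range, and the fold change was 0.899 (0.781 to 1.03, edgeR's adjusted p = 0.703).

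Complex III passes electrons from ubiquinol to cytochrome c. Cyc1 (ENSMUSG00000022551, chromosome 15, 76343523 to 76346260), which encodes its cytochrome c1, stood at 76.2, 76.8 and 84.8 CPM in Myrf-kd and at 72.4, 65.9 and 70.9 CPM in WT. The groups did not overlap, with Myrf-kd 3 highest. The log2 fold change was 0.18 ± 0.07 SE, a 1.14-fold higher level (1.01 to 1.28; unadjusted p = 0.0379, adjusted p = 0.666 by edgeR). Uqcrq, a small membrane subunit, stood at 34.2, 33.7 and 45.4 CPM in Myrf-kd and at 29.4, 33.2 and 33.5 CPM in WT. Its groups were separated by a narrow gap between Myrf-kd 2 and WT 3, and Myrf-kd 3 stood far above the other 5 libraries (log2 fold change 0.24 ± 0.14 SE, edgeR's adjusted p = 0.703). The large core proteins Uqcrc1 and Uqcrc2 and the iron-sulfur protein Uqcrfs1 had estimates of −0.06, −0.03 and −0.04, with overlapping groups. Uqcrh had −0.10 ± 0.14 SE, Uqcr11 0.19 ± 0.17 SE and Uqcrb, a ubiquinone-binding subunit, −0.01 ± 0.11 SE.

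Complex IV, cytochrome c oxidase, reduces oxygen to water. Cox4i1 stood at 211, 182 and 221 CPM in Myrf-kd and at 198, 216 and 205 CPM in WT, so that the lowest and the highest library both came from Myrf-kd. Cox5b, a zinc-binding subunit, stood at 55.7, 44.7 and 62.7 CPM in Myrf-kd and at 43.2, 48.5 and 47.2 CPM in WT. Myrf-kd 1 and 3 lay above all WT libraries and Myrf-kd 2 inside their range (log2 fold change 0.23 ± 0.13 SE, edgeR's adjusted p = 0.703). Cox5a, a subunit on the matrix side, stood at 48.0, 43.3 and 51.1 CPM in Myrf-kd and at 49.0, 52.0 and 56.0 CPM in WT, with an estimate of −0.14 ± 0.09 SE. The groups overlapped, since Myrf-kd 3 lay between WT 1 and WT 2. Cox6c and Cox7a1 had 0.19 ± 0.15 SE and 0.28 ± 0.30 SE, and Cox6b1, Cox7b and Cox8a had 0.01, −0.01 and 0.02. No complex IV gene had groups that did not overlap. Over the 4 complexes 6 of the 66 genes had such groups (Ndufa3, Ndufc1, Ndufs1, Ndufs3, Cyc1 and Uqcrq), where 14.6% of all genes did.

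Most of the spread lay between libraries of the same group. Myrf-kd 3 was the highest of the 6 libraries for 38 of the 66 subunit genes, where 25.7% of all genes were highest there. Myrf-kd 2 was the lowest for 27, where 16.3% of all genes were lowest there. WT 3, the other female library, was the highest for 12 subunit genes and the lowest for 7. Taken as the median deviation from the 6-library mean in log2 CPM, complex IV lay at −0.04, −0.16 and 0.21 in Myrf-kd 1, 2 and 3 and at −0.05, 0.04 and −0.07 in WT 1, 2 and 3. Complex I lay at −0.02, −0.10 and 0.14 in Myrf-kd and at −0.05, 0.03 and 0.00 in WT. Myrf-kd thus held both the highest and the lowest library of these complexes, with WT in between. Without Myrf-kd 3, 14 of the 66 estimates lay above 0, and without Myrf-kd 2, 45 did.

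**Figure D3:**
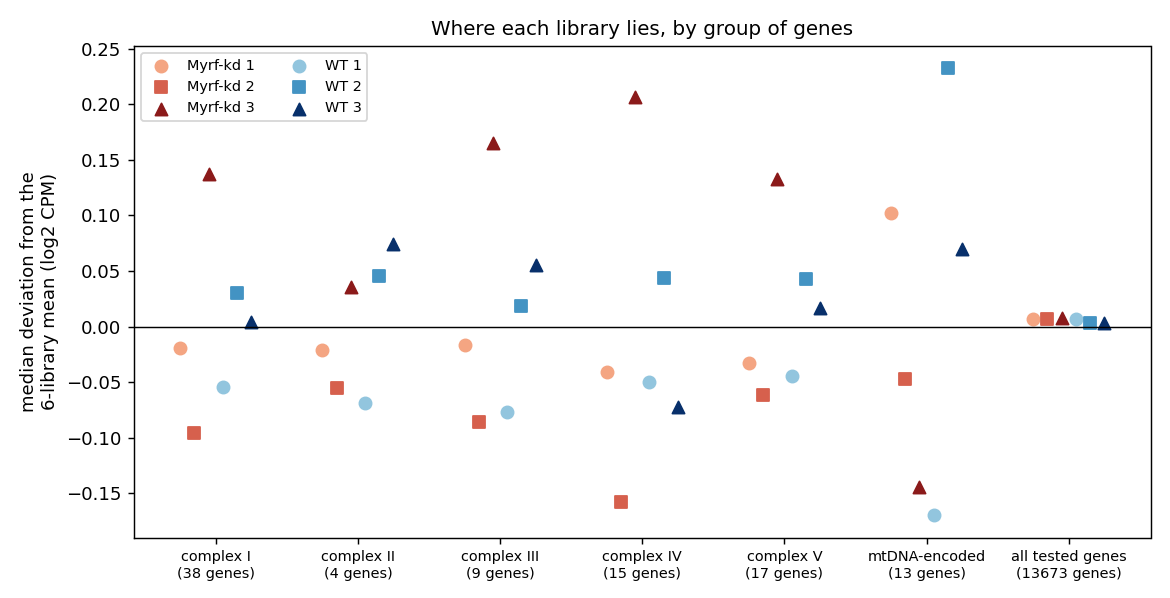
Median deviation of each library from the 6-library mean (log2 CPM) over the genes of each complex, the genes encoded in mitochondrial DNA and all tested genes; each point is 1 library. Myrf-kd 3 is the highest and Myrf-kd 2 the lowest library in complexes I, III, IV and V, and all libraries lie within 0.01 of 0 over all genes.

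The high level in Myrf-kd 3 was uneven over the subunits. It was the highest library for 23 of 38 genes of complex I, 0 of 4 of complex II, 4 of 9 of complex III and 11 of 15 of complex IV. Subunits with a short coding sequence deviated most. Among the 32 genes with a coding length of up to 411 nucleotides, Myrf-kd 3 was the highest library for 26, with a median deviation of 0.21. Among the 31 longer genes it was the highest for 10, with a median deviation of 0.05. Over these 63 genes, which share the library and its depth, the deviation of Myrf-kd 3 and the log2 coding length had a Pearson r of −0.61 and a Spearman rho of −0.64, given as a description.

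Coding length was also related to the level in Myrf-kd 3 beyond the respiratory chain. Of 279 tested coding genes of up to 300 nucleotides, 45.2% were highest in Myrf-kd 3, against 21.0% of 5221 genes over 1500 nucleotides. Over all 11602 tested coding genes with a length, r was −0.11. Lens markers moved with this library too. They summed to 0.752, 0.302 and 32.7 FPKM in Myrf-kd 1, 2 and 3 and to 11.1, 6.87 and 12.9 FPKM in WT 1, 2 and 3. Of the 9, the libraries in the same order had 3, 3 and 9 detected in Myrf-kd and 9, 7 and 6 in WT. Cryba1, Crybb2 and Crygs were at 0 in Myrf-kd 1 and 2. The part of coding length, sex and lens RNA in the subunits' level was not tested. In bulk tissue, a different share of cells of one type and a different amount of RNA per cell cannot be told apart.

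**Figure D4:**
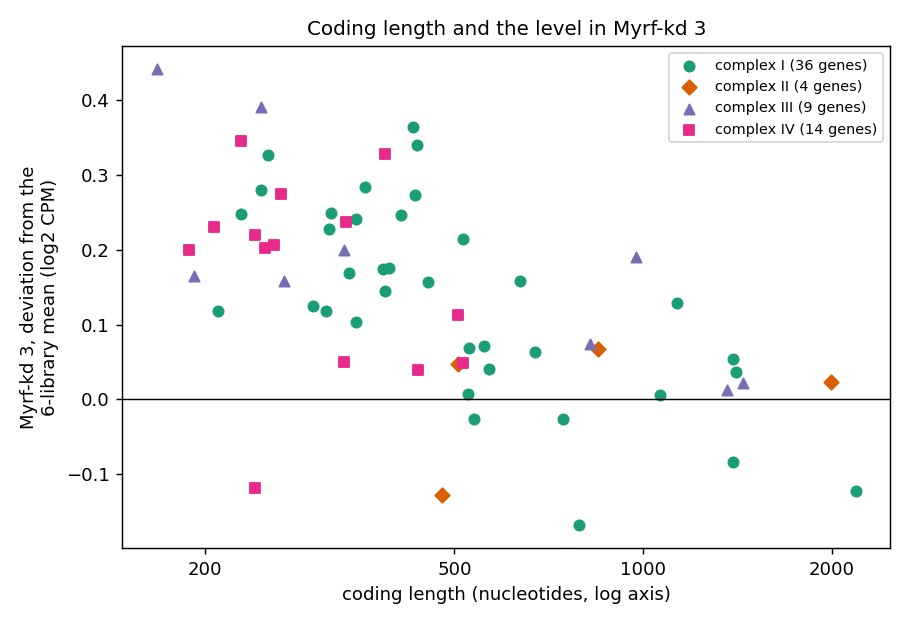
Deviation of Myrf-kd 3 from the 6-library mean (log2 CPM) against coding length (nucleotides, log axis) for the 63 tested subunit genes with a coding length, coloured by complex. Genes of up to 411 nucleotides lie mostly above 0.1, and the longest, Ndufs1 at 2181 nucleotides, lies below 0.

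Near-identical gene copies limit what can be read from several subunits. Of the 71 genes, 15 have an annotated copy with at least 95% identity over at least 80% of the coding sequence, and for 7 of these a copy was listed at 10% or more of the member's own FPKM. The largest was Gm15920, a processed pseudogene of Ndufa12, at 64.3 FPKM beside 13.0 FPKM for Ndufa12 itself. Gm11273, annotated as coding, was listed at 27.1 FPKM beside 27.2 FPKM for Cox5b. Reads of such copies may have been divided between them by the counting, so the level of Ndufa12, an accessory subunit of the N module, and that of Cox5b are uncertain. Shares of FPKM can differ from shares of counts. Uqcr10 of complex III has a copy at 8.48% of its FPKM, and summing both moved Myrf-kd 1 from 23.4 to 32.9 CPM.

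Ndufb4 and the pseudogene Ndufb4c show how this affects the comparison. Ndufb4c is 100% identical to the coding sequence of Ndufb4 over the aligned part, which is at least 80% of it. Ndufb4c had FPKM values of 3.24, 3.23 and 4.26 for Myrf-kd 1, 2 and 3 and of 3.84, 6.71 and 12.3 for WT 1, 2 and 3. WT 3 stood apart, and WT 1 lay inside the Myrf-kd range. Its log2 fold change of −1.11 ± 0.42 SE was the largest among the subunit genes (unadjusted p = 0.0347, adjusted p = 0.666 by edgeR), and Ndufb4 itself had 0.13 ± 0.09 SE. With the counts of both summed, the gene stood at 38.0, 39.9 and 42.5 CPM in Myrf-kd and at 39.6, 36.3 and 39.9 CPM in WT, and the groups overlapped. Exons of 21 members also overlap those of another gene, over 6.16% of the exonic bases of Ndufs1, 4.04% of Ndufs3 and 9.94% of Cox4i1. The share was larger for Cox5a at 12.8%, Ndufb11 at 12.9% and Uqcrc2 at 19.8%, and the highest of any member was 39.0%. The sources used here do not give whether strand was kept.

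The promoters of subunit genes are known for sites of nuclear respiratory factor 1 (NRF1), GA-binding protein (GABP), YY1 and estrogen-related receptors. RefSeq promoters (GRCm38.p6, 250 bases before to 50 after the start) matched 53 of the 71 genes. A gene with several promoters was counted once, if any of them held a match. On either strand, the NRF1 core GCGCANGCG was found in 13 of the 53, or 24.5%. It was found in 7.03% of all 27025 genes with a promoter and in 16.3% of the tested coding genes with one. CCGGAAG, bound by GABP and other ETS factors, was found in 20.8% (9.93% and 20.6%). AAGATGG, the YY1 core, was found in 15.1% (7.28% and 8.64%), and AAGGTCA, the estrogen-related receptor core site, in 7.55% (5.38% and 3.74%). At least 1 of the 4 was present in 29 of the 53 genes and at least 2 in 6. The same counts over all genes were not made, so these numbers have nothing to be set against. Such matches describe letters, not bound sites. The stretches below, 5′ to 3′ on the gene's strand, show the NRF1 core in its promoter context in complexes I, II and IV, with every match in capitals. Cox6a1, on the minus strand of chr5:115349092-115349140, and Sdhd, on the minus strand of chr9:50603900-50603948, hold both this and the ETS motif in their promoters. In Cox6a1, 2 matches on opposite strands overlap. Ndufa8 lies on the minus strand of chr2:36049339-36049387, and holds 2 matches, both on the opposite strand. Ndufs5 is on the minus strand of chr4:123718256-123718304 and Sdha on the minus strand of chr13:74350310-74350358.
Ndufa8: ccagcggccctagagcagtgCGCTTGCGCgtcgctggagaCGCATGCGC
Ndufs5: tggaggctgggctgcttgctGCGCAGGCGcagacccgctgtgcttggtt
Sdha: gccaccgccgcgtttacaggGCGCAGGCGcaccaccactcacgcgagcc
Sdhd: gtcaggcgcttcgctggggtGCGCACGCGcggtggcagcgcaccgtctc
Cox6a1: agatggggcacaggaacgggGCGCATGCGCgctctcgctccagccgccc

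A list of 17 regulators of respiratory genes held nuclear factors of the kinds named above, their coactivators, factors that transcribe mitochondrial DNA (Tfam, Tfb1m, Tfb2m, Polrmt and Tefm) and Hif1a. Of these, 0 were called, with 5 above 0 and 12 below. Esrra, the estrogen-related receptor alpha, stood at 29.7, 25.6 and 27.4 CPM in Myrf-kd and at 24.6, 21.7 and 23.4 CPM in WT. All Myrf-kd libraries lay above all WT libraries, and the log2 fold change was 0.24 ± 0.10 SE (edgeR's adjusted p = 0.666). The largest estimate of the list was that of Esrrb, another receptor of the family known from rods, at 0.83 ± 0.62 SE (edgeR's adjusted p = 0.745). Esrrb stood at 197, 139 and 742 CPM in Myrf-kd and at 162, 277 and 165 CPM in WT. Myrf-kd 3, the library in which most subunit genes were highest, was far above the other 5, and Myrf-kd 2 was the lowest. The part of Esrrb in the subunits' level was not tested. Ppargc1b, a coactivator of mitochondrial genes, and Nrf1 had log2 fold changes of −0.23 ± 0.10 SE and −0.19 ± 0.10 SE (adjusted p = 0.677 and 0.697 by edgeR).

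Complex V, with 0 of 17 genes called and a median log2 fold change of −0.01 (0.02 under library totals alone; on leaving out one library, 0.02 for Myrf-kd 1, 0.04 for Myrf-kd 2, −0.06 for Myrf-kd 3, −0.02 for WT 1 or WT 3 and 0.00 for WT 2), shared the order of libraries, as Myrf-kd 3 was the highest for 12 of the 17. Atp5g1, a gene for the membrane ring of ATP synthase, had the smallest p of that list (0.28 ± 0.11 SE, adjusted p = 0.666 by edgeR), and Atp5a1 and Atp5j had −0.11 ± 0.06 SE and −0.10 ± 0.06 SE.

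The 13 genes of mitochondrial DNA supply the remaining subunits, and their levels did not follow the nuclear genes. Myrf-kd 3 was the highest library for 0 of the 13, and the median deviations were 0.10, −0.05 and −0.14 in Myrf-kd 1, 2 and 3 and −0.17, 0.23 and 0.07 in WT 1, 2 and 3. WT 1 was thus the lowest and WT 2 the highest. Estimates lay below 0 for 11 of 13, with 0 called and a median of −0.09, and for 7 without WT 2 and 9 under library totals alone. The median was 0.00 when WT 2 was left out, −0.03 when Myrf-kd 3 was, −0.18 when Myrf-kd 1 was and −0.20 when WT 1 was. mt-Co3 of complex IV had a log2 fold change of −0.34 ± 0.25 SE, mt-Nd2 of complex I −0.11 ± 0.06 SE and mt-Nd6 −0.07 ± 0.07 SE.

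Assembly factors build the complexes but are not part of them. Of 47 listed, 46 were tested and 0 called, with 27 above 0 and 19 below. Sdhaf4, a factor for complex II, stood at 17.7, 16.3 and 17.0 CPM in Myrf-kd and at 13.9, 13.8 and 14.3 CPM in WT. The groups were well apart for this gene, and the log2 fold change was 0.28 ± 0.09 SE (unadjusted p = 0.0177, adjusted p = 0.666 by edgeR). Ndufaf1, a complex I factor, and Cox17, a copper chaperone for complex IV, had 0.45 ± 0.16 SE and 0.38 ± 0.20 SE, neither past the test. Among 18 genes for electron carriers and the citrate cycle, 0 were called, with 12 above 0 and 6 below. Coq5 and Coq3, both of ubiquinone synthesis, had 0.39 ± 0.16 SE and 0.32 ± 0.17 SE, and Ogdh of the citrate cycle 0.12 ± 0.07 SE.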

How the data were processed

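The table deposited by the authors holds FPKM values, named so in the file headers, and counts for 55450 genes in 6 libraries. The deposited counts, whole numbers at about 4 units per fragment, were treated as estimated counts. The submitters' processing notes name Bowtie 0.12.2, HISAT2 2.0, StringTie 1.3.0 and GRCm38 without saying which did what. Trizol was used for RNA extraction, per the labels' protocols. Library totals were 50695091 to 70298511 units. Groups come from the sample titles.

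Genes with a mean of at least 1 FPKM were tested with edgeR 4.0.16 (R 4.3.3, quasi-likelihood test, TMM, genotype as the only term), with Benjamini-Hochberg adjustment over 13673 genes and a threshold of 0.05. limma 3.58.1 and DESeq2 1.42.0 were alternatives, beside other scalings, filters, a replicate block, sex and the omission of each library. The edgeR fit was tested on simulated data, with changed genes drawn from all tested genes. It called 5 of 50 genes changed 1.5-fold, 30 of 50 changed 2-fold, 44 of 50 changed 3-fold and 47 of 50 changed 4-fold. Of the unchanged genes, 5 were called. All pairs of libraries differed by more than sampling noise (chi-square per degree of freedom at least 18.5). Copies were found with blastn 2.17.0, and coding lengths come from GENCODE principal transcripts of GRCm38. In all, 61 of the 71 genes have the same start and end there as in the table, whose coordinates are given. Named genes are those with the smallest p and the highest level in each complex, the isoform pairs, all of complex II, and the 3 with the smallest p of each other list. Ndufs1, Ndufa12, Ndufb2, Ndufb4, Uqcr10, Uqcrfs1 and Esrrb were added after their values were seen. The result of 1 subunit gene is not reported here. The members and lists were chosen with earlier results of these data known.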

Additional observations from a re-analysis of the deposited data

How the results depend on the processing

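No subunit gene passed under any of the 18 alternatives, where the smallest adjusted p of any subunit gene was 0.385 (DESeq2, Ndufb4c). Over all genes, the count past the threshold was 6, against 53 with DESeq2, 2 with a mean of at least 5 FPKM, 0 with the replicate block and 9 to 16 when leaving out 1 library, and the cause was not tested beyond the fewer genes or libraries in these fits. Whether the replicate numbers pair the samples was not settled. Deviations from the group mean had correlations of −0.04, 0.08 and 0.14 between groups for numbers 1, 2 and 3. Unmatched numbers gave −0.14 to 0.09. These values cannot decide it, since deviations within a group sum to 0. Number 3 was the female library in both groups. The replicate block left 0 subunit genes past the threshold and 31 above 0. Subunit genes above 0 numbered 31, and 14 to 45 when leaving out 1 library. Median log2 fold changes then ran from −0.07 to 0.06 in complex I, −0.08 to 0.00 in complex II, −0.09 to 0.04 in complex III and −0.07 to 0.09 in complex IV. Summing near-identical copies was chosen after seeing the data and left 0 of 63 past the threshold.

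Of 31 named subunit genes, 16 kept their direction in all alternatives run and 15 did not, none of them called. With library totals alone, estimates turned positive for Cox4i1 (0.023), Cox7a2l (0.011), Cox7b (0.029), Sdha (0.014), Uqcrb (0.020) and Uqcrc2 (0.0041). Cox4i1 was also at 0.0038 in both limma fits and 0.0032 at a mean of at least 5 FPKM. Cox7b was at 0.0066 with log2(FPKM + 1), 0.0067 with log2(FPKM + 0.1), 0.0036 with upper quartile factors and 0.0080 at a mean of at least 5 FPKM. When leaving out 1 library, the range was −0.071 to 0.068 for Cox4i1, −0.12 to 0.0094 for Cox4i2, −0.015 to 0.19 for Cox6a1, −0.10 to 0.088 for Cox6b1, −0.068 to 0.021 for Cox7a2l, −0.13 to 0.068 for Cox7b, −0.10 to 0.086 for Cox8a, −0.056 to 0.17 for Ndufa4, −0.059 to 0.077 for Ndufb11, −0.037 to 0.0024 for Sdha, −0.054 to 0.062 for Sdhb, −0.10 to 0.0054 for Sdhc, −0.013 to 0.30 for Uqcr11, −0.13 to 0.053 for Uqcrb and −0.053 to 0.0079 for Uqcrc2. With 3 libraries a group, differences as small as most of these estimates were not detectable.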
